A study of Mus musculus with 12 samples.

Results

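Long noncoding RNAs are transcripts that are processed like mRNAs, or kept unspliced, without coding for a protein, and many of them act in the nucleus. The 10 described here were taken from the counts table by their symbols: Malat1, Neat1, Meg3, Rian, Mirg, Miat, Gas5, H19, Kcnq1ot1 and Pvt1. All 10 were found among the 56860 named genes of the table, 30142 of them with a count somewhere and 16600 with enough counts to be tested. All 10 passed this filter on low counts. Malat1 is a component of nuclear speckles, where splicing factors gather, and Neat1 is the scaffold of paraspeckles, nuclear bodies built from RNA and RNA-binding proteins. Meg3, Rian, Mirg, H19 and Kcnq1ot1 are imprinted, which means that they are transcribed from the chromosome of one parent, and they lie in clusters with protein-coding genes that are imprinted in the opposite way. In the brain such RNAs are best known from neurons, and Malat1, Neat1 and Meg3 are among the most frequently detected noncoding transcripts of neural cells.

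The cells were primary oligodendrocytes (OLs), isolated with beads against the surface antigen O4 from the cortex of newborn C57BL/6J mice and differentiated in culture. The labels give the medial prefrontal cortex as their tissue. In the siEgr2 group, 6 libraries came from OLs treated for 48 h with siEgr2 to knock down Egr2, a zinc finger transcription factor of myelinating glia, and in the siNC group 6 libraries came from OLs that received a scrambled control. The comparison asks how the OL transcriptome differs when Egr2 is targeted. The labels do not say that the replicates were separate cultures, so that the p-values measure only the spread between these libraries, which may be technical.

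Total counts ranged from 28682946 to 39383014 in the siNC libraries and from 8034251 to 16683677 in the siEgr2 libraries; the group ranges of depth did not overlap. The share of counts on Rn18s-rs5, a gene of 18S ribosomal RNA, was 0.142% to 1.05% in siNC and 10.5% to 16.5% in siEgr2. Depth, ribosomal RNA share and treatment cannot be told apart in these groups. Within the siEgr2 group, replicates 4 and 6 had the largest 18S shares, 16.3% and 16.5%, and stood apart from the other 4 libraries in Malat1 and Kcnq1ot1. Some results are given with and without them below, Malat1 and Kcnq1ot1 among them, a choice made after seeing the data.

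The deposited whole numbers did not behave as a plain tally of reads at low values. Among protein-coding genes, 67.5% of the values of at least 2 and under 10, and 62.6% of those of at least 10 and under 30, were even numbers, against 52.1% from 30 to under 100 and 50.3% from 100 to under 1000. The value 1 occurred 582 times in these genes and the value 2 occurred 2826 times. In addition, 172 genes had the value 1 in every one of the 12 libraries whatever their depth, among them 78 miRNA and 36 snoRNA genes, and 0 of them entered the test. The counting program is not given in the sources used here, so what a low value stands for is not known, and no counting interval is given. Of the 10 long noncoding RNAs, 1 had any value under 30, Mirg with 4 to 38 counts, and the others had at least 237 counts in every library.

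Egr2 itself was measured first, as a check of the labels. Its level in the siNC libraries, in the order of their replicate numbers, was 4.80, 4.24, 5.57, 6.53, 3.89 and 7.06 CPM (counts scaled to the same total per library, by TMM). Targeted libraries 1 to 6 had 2.22, 3.01, 4.02, 4.86, 3.84 and 4.68 CPM of Egr2, on 30 to 65 counts. The siEgr2 libraries lay lower on average, 3 of 6 lay below every siNC library, and the groups overlapped. The log2 fold change of Egr2 was -0.51 (SE 0.208) and its adjusted p 0.0981 (edgeR quasi-likelihood test, Benjamini-Hochberg or BH adjustment), so that Egr2 did not pass the test. Egr2 passed in 2 of 25 alternatives: without siEgr2 replicates 4 and 6, which have the highest Egr2 values of their group, at -0.73 (edgeR, BH-adjusted p 0.0393), and with library size only as scaling, at -0.70 (adjusted p 0.0144, edgeR).

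Malat1, Kcnq1ot1 and Pvt1 were higher in siEgr2, and 0 of the 10 long noncoding RNAs were lower. Calls required both a BH-adjusted p under 0.05 over all 16600 genes (edgeR quasi-likelihood test) and a log2 fold change beyond 0.5 in size. Of the 10 RNAs, 3 were called higher, where 2.63% of all tested genes were called higher (437 genes), and 0 were called lower, where 5.08% were called lower (844 genes). By an unadjusted p under 0.05 in edgeR, 0 of the 10 were lower either, and 0 were called lower by DESeq2 or limma-voom. By the adjusted p alone, 5 of the 10 were higher, with Gas5 and Rian added, against 8.57% of all tested genes, and 0 were lower, against 11.3%. For Malat1, Gas5 and Kcnq1ot1, 3 of 10, the lowest siEgr2 value exceeded the highest siNC value, as it did for 4.15% of all tested genes. The median log2 fold change of the 10 was 0.19, with 7 positive and 3 negative values, beside a median of 0.0046 over all tested genes. With the 18S share as a covariate, which cannot be told apart from the treatment, Malat1 turned to -0.56 (adjusted p 0.831, edgeR), Kcnq1ot1 had 1.26 (adjusted p 0.628, edgeR) and Pvt1 0.34 (adjusted p 0.765, edgeR), so that none of the 3 calls was kept, while Miat was called at 1.71 (adjusted p 0.00043, edgeR). The 10 were chosen with earlier results of these data known, so these shares describe the list.

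**Figure D1:**
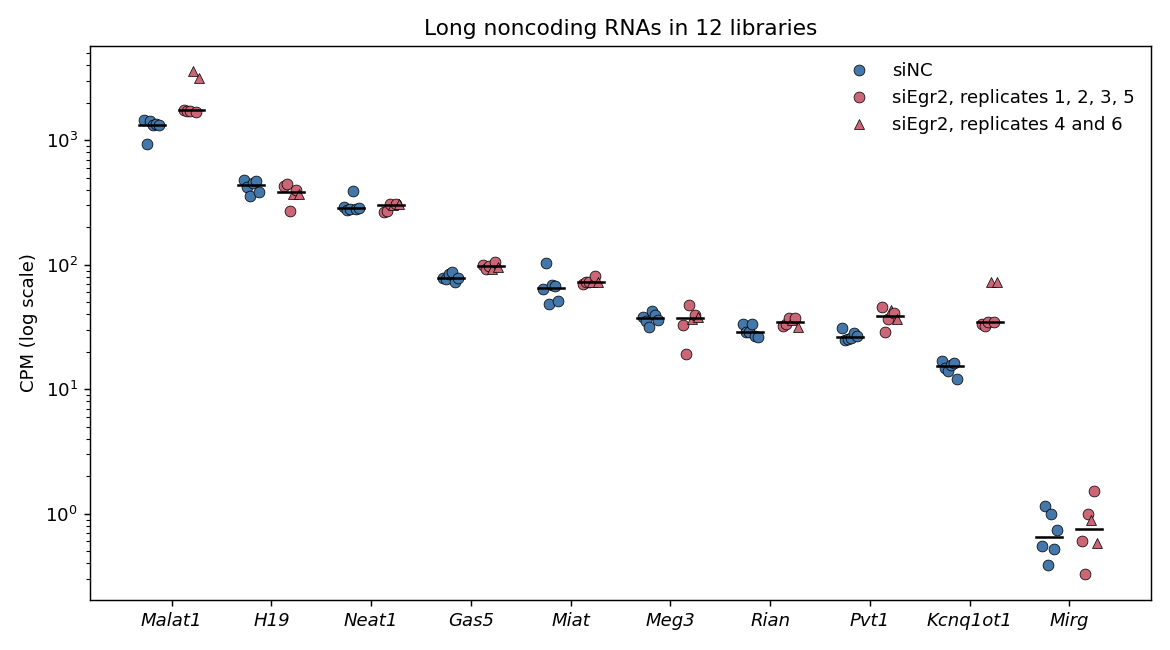
Level of the 10 long noncoding RNAs in CPM on a log scale (vertical axis) in the 6 siNC libraries (blue) and the 6 siEgr2 libraries (red, with replicates 4 and 6 as triangles). Each point is 1 library and each black bar the median of a group; Malat1 reached 3599 and 3188 CPM in siEgr2 replicates 4 and 6, and Kcnq1ot1 reached 72.7 and 73.3 CPM.

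Of the nuclear body RNAs, Malat1 was higher in siEgr2 and Neat1 showed no difference beyond the spread. Malat1, which lies on chromosome 19 of GRCm38 from 5795690 to 5802672 on the minus strand, had a lowest, median and highest level of 928, 1340 and 1445 CPM in siNC. In siEgr2 these were 1696, 1740 and 3599 CPM. All 6 siEgr2 libraries lay above all siNC libraries, 4 of them in a narrow band and replicates 4 and 6 far above it, while siNC replicate 2 lay below the rest of its group. The log2 fold change of Malat1 was 0.81 (SE 0.232), BH-adjusted p 0.0329 (edgeR quasi-likelihood test). Without siEgr2 replicates 4 and 6 the fold change of Malat1 was 0.39 (adjusted p 0.0325, edgeR), which is under the fold threshold. Malat1 also lost its call without any one siNC library and without siEgr2 replicate 4 or 6, with adjusted p values of 0.0506 to 0.0646 in edgeR. Gm37376, an antisense gene annotated within Malat1 on chromosome 19 from 5801941 to 5802393, had 20.9 and 15.6 CPM in siEgr2 replicates 4 and 6, and 7.04 to 9.01 CPM in the other 4. Whether the counting used strand is not given in the sources used here, so reads of Malat1 and of Gm37376 cannot be told apart. The part of the 18S share in these levels was not tested apart from the groups.

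Neat1 lies on chromosome 19 from 5824708 to 5845478, next to Malat1 and on the same strand. Its lowest, median and highest levels were 274, 284 and 389 CPM in siNC and 267, 304 and 310 CPM in siEgr2. The groups overlapped almost fully, and the highest library of all was siNC replicate 4. Its log2 fold change was -0.03 (95% confidence interval -0.21 to 0.14; adjusted p 0.831, edgeR quasi-likelihood test, BH). The ratio of Neat1 to Malat1 within a library needs no scaling between libraries, and its log2 was -2.11 ± 0.27 in siNC and -2.88 ± 0.47 in siEgr2 (SD, n = 6 each). This ratio was lower in 6 of 6 siEgr2 libraries than in any siNC library, a difference of -0.77 (two-sided exact permutation test over 924 assignments, p = 0.00216, the smallest these groups allow; BH-adjusted p over the 8 ratios computed, 0.00866). Without siEgr2 replicates 4 and 6 the difference was -0.47 (exact permutation test, adjusted p 0.0571).

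Malat1 differs from most of the others in its 3′ end, which is made by cleavage next to a tRNA-like structure and carries a genome-encoded run of A in place of an added poly(A) tail. The end is shown because the 8 tested genes of a list of structural RNAs without a conventional poly(A) tail were all called higher. Over all tested genes 2.63% were called higher. The list includes ribosomal RNAs and had a median log2 fold change of 3.67, and the part of this in the level of Malat1 was not tested. The sequence is from GENCODE M21 transcript Malat1-201 (6983 bases) on GRCm38, chr19:5795913-5796059, minus strand, in the exon of the transcript. The capitals mark the run of 12 A that starts at base 6674, with 298 bases of the annotated transcript after it.
Malat1: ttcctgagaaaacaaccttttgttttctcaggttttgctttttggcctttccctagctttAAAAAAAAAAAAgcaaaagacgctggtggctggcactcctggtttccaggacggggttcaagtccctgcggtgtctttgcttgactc

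**Figure D2:**
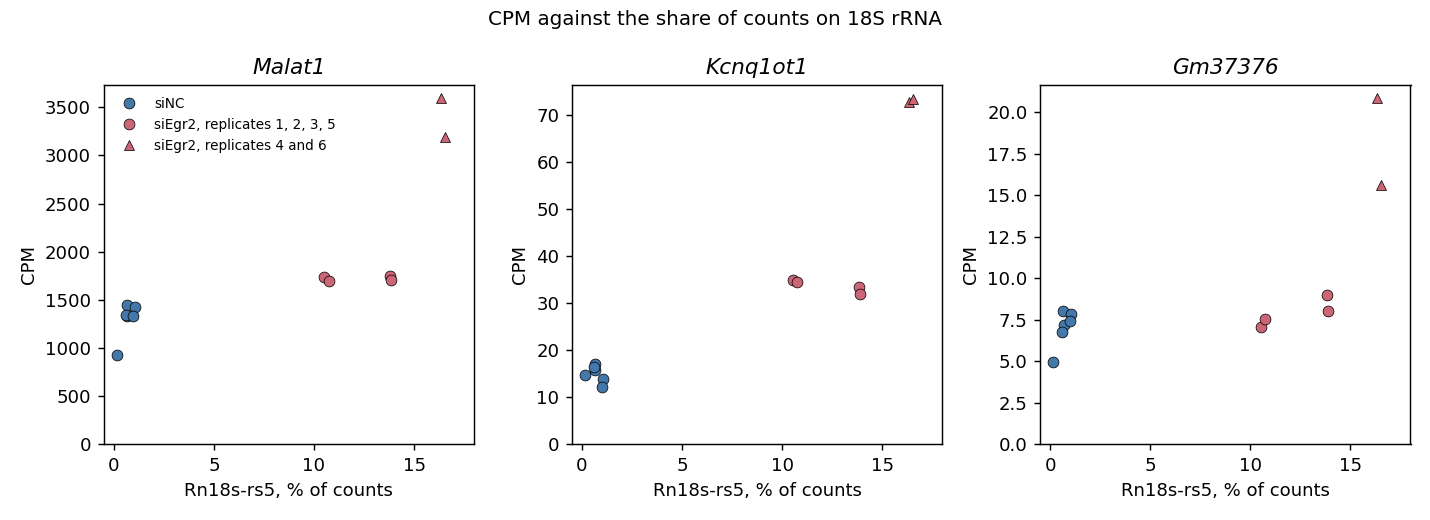
Level in CPM (vertical axes) of Malat1, Kcnq1ot1 and Gm37376, the antisense gene within Malat1, against the percent of a library's counts on Rn18s-rs5 (horizontal axes), 1 point per library. The siNC libraries (blue) lie at 0.142% to 1.05% and the siEgr2 libraries (red) at 10.5% to 16.5%, where replicates 4 and 6 (triangles) have the highest level of each of the 3 genes.

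The Dlk1-Dio3 domain on chromosome 12 holds Meg3, Rian and Mirg, which are transcribed in the same direction from the maternal chromosome, and the paternally expressed protein-coding genes Dlk1, Rtl1 and Dio3. None of the 3 noncoding RNAs was called in edgeR's fit. Meg3, from 109541001 to 109571726, had a lowest, median and highest level of 31.6, 37.1 and 42.6 CPM in siNC and 19.3, 37.4 and 47.9 CPM in siEgr2. Both extremes were siEgr2 libraries, replicate 2 the lowest and replicate 3 the highest. The log2 fold change of Meg3 was -0.06 (95% confidence interval -0.41 to 0.30). Rian, a host of snoRNAs and miRNAs from 109603940 to 109661716, ranged from 26.3 to 33.5 CPM in siNC and from 31.7 to 37.7 CPM in siEgr2. In Rian 3 of 6 siEgr2 libraries lay above every siNC library. Its log2 fold change of 0.23 (SE 0.0770) reached a BH-adjusted p of 0.0449 (edgeR quasi-likelihood test) and stayed under the fold threshold. This adjusted p passed in 10 of 25 alternatives. It did not pass in limma-voom (0.0545), with no filter (0.123 in edgeR), or without siEgr2 replicate 3 (0.102 in edgeR). Without siEgr2 replicates 4 and 6 it was 0.0820 (edgeR). With library size only the fold change of Rian was 0.05 (adjusted p 0.685, edgeR). Mirg, the miRNA host at 109729764 to 109749460, had 0.387 to 1.16 CPM in siNC and 0.326 to 1.54 CPM in siEgr2, on 4 to 38 counts, and the confidence interval of its log2 fold change ran from -0.72 to 1.01.

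The 3 ratios between these RNAs were compared within libraries. The log2 ratio of Rian to Meg3 was -0.33 ± 0.15 in siNC and 0.0097 ± 0.40 in siEgr2 (SD, n = 6 each). The difference of 0.34, higher in 4 of 6 siEgr2 libraries than in any siNC library, did not pass after adjustment (exact permutation test, p = 0.0433, BH-adjusted p 0.115), and siEgr2 replicate 2 was far above the others at 0.78. Without siEgr2 replicate 3 it was 0.41 with an adjusted p of 0.0289, and without siEgr2 replicate 2 it was 0.18 with an adjusted p of 0.219 (exact permutation tests). The ratios of Mirg to Meg3 and of Mirg to Rian differed by 0.27 and -0.06 (exact permutation test, BH-adjusted p 0.491 and 0.881). Of the protein-coding genes of the domain, Dlk1, a ligand of the Notch family, had a log2 fold change of -0.41 (adjusted p 0.143 in edgeR's test with BH adjustment). The thyroid hormone deiodinase gene Dio3 had -0.58 on as few as 2 counts, and Begain had -0.34, and neither was called. The value of Dio3 ran from -1.05 to -0.27 with each library left out, and was -0.11 without siEgr2 replicates 4 and 6. Rtl1 did not have enough counts to be tested.

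H19 lies on chromosome 7 from 142575529 to 142578143 on the minus strand, is transcribed from the maternal chromosome and hosts a miRNA, while its neighbour Igf2, a growth factor, is paternally expressed. Igf2 was lower in siEgr2 and H19 was not called. H19 had a lowest, median and highest level of 360, 437 and 481 CPM in siNC and 269, 385 and 443 CPM in siEgr2. Only siEgr2 replicate 3 lay below the siNC range. The log2 fold change of H19 was -0.17 (95% confidence interval -0.43 to 0.08). Without siEgr2 replicate 3 it was -0.09 (adjusted p 0.475, edgeR). Igf2 had 140, 199 and 250 CPM in siNC and 96.6, 130 and 160 CPM in siEgr2, with 4 of 6 siEgr2 libraries below every siNC library. Its level fell by 0.63 on the log2 scale (SE 0.153; adjusted p 0.0131, edgeR quasi-likelihood test, BH). This call was held in 24 of 25 alternatives and lost with the 18S share as a covariate, where Igf2 turned to 0.10 (adjusted p 0.961, edgeR). The log2 ratio of H19 to Igf2 differed by 0.45 (exact permutation test, p = 0.0952, BH-adjusted p 0.190), so that a change of H19 relative to Igf2 was not shown.

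Kcnq1ot1 had the largest difference among the 10 RNAs. It is a paternally expressed, unspliced transcript annotated as 1 exon of 93092 bases on chromosome 7 from 143203458 to 143296549, minus strand, antisense within Kcnq1, and it is known to silence neighbouring genes on its own chromosome. Its lowest, median and highest levels were 12.1, 15.3 and 17.0 CPM in siNC and 32.0, 34.6 and 73.3 CPM in siEgr2. The groups did not overlap, and replicates 4 and 6 of siEgr2, at 72.7 and 73.3 CPM, lay far above the other 4 at 32.0 to 34.8 CPM. The log2 fold change was 1.64 (SE 0.247; adjusted p 0.000635, edgeR quasi-likelihood test, BH), a fold of 3.12. Without replicates 4 and 6 Kcnq1ot1 was still called, at 1.16 (adjusted p 3.89e-06, edgeR). Kcnq1, on the other strand, had 59 counts in siNC and 33 in siEgr2 in all and was not tested, and reads of its introns cannot be told apart from Kcnq1ot1 without strand.

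The genes near Kcnq1ot1 did not move together. Cdkn1c, an inhibitor of cyclin-dependent kinases, had 26.2 to 31.0 CPM in siNC and 19.4 to 30.7 CPM in siEgr2, with a log2 fold change of -0.10 (95% confidence interval -0.31 to 0.11). The log2 ratio of Kcnq1ot1 to Cdkn1c was -0.92 ± 0.24 in siNC and 0.74 ± 0.57 in siEgr2 (SD, n = 6 each). It was higher in 6 of 6 siEgr2 libraries than in any siNC library, by 1.66 (exact permutation test, p = 0.00216; BH-adjusted p 0.00866). Without siEgr2 replicates 4 and 6 the difference was 1.32 (exact permutation test, adjusted p 0.0381). Tssc4, a splicing-related gene of the cluster, was called higher with a log2 fold change of 0.78 (adjusted p 0.0377, edgeR's test with BH adjustment). Its siEgr2 libraries fell into replicates 1 and 2 at 57.7 and 56.1 CPM, within the siNC range of 53.2 to 68.5 CPM, and 4 libraries at 120 to 134 CPM. The call of Tssc4 was held in 9 of 25 alternatives. It was lost without any one siNC library and without siEgr2 replicate 3, 4, 5 or 6. In these fits the log2 fold change of Tssc4 was 0.70 to 0.82, with adjusted p values of 0.0537 to 0.0788 in edgeR. Without siEgr2 replicates 4 and 6 together it was 0.61 (adjusted p 0.157, edgeR). The tetraspanin gene Cd81, the most abundant of these neighbours, had a log2 fold change of -0.18, which passed the adjusted p (0.00588, edgeR) and not the fold threshold, with 5 of 6 siEgr2 libraries below every siNC library. Nap1l4 had 0.04 and the transcription factor gene Ascl2 had -0.24 (adjusted p 0.559 and 0.716, edgeR), and neither was called. Over all imprinted neighbours, 9 of 15 were tested, 1 was called higher and 1 lower (11.1% each, beside 2.63% and 5.08% of all tested genes), with a median log2 fold change of -0.24. With library size only 0 were called higher and 3 lower, beside 237 higher and 1737 lower of all 16600 tested genes. Ins2, Phlda2, Slc22a18 and Tspan32 were among the 6 that were not tested. Slc22a18 had 48 counts in siNC, 3 to 18 per library, and 0 in siEgr2.

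**Figure D3:**
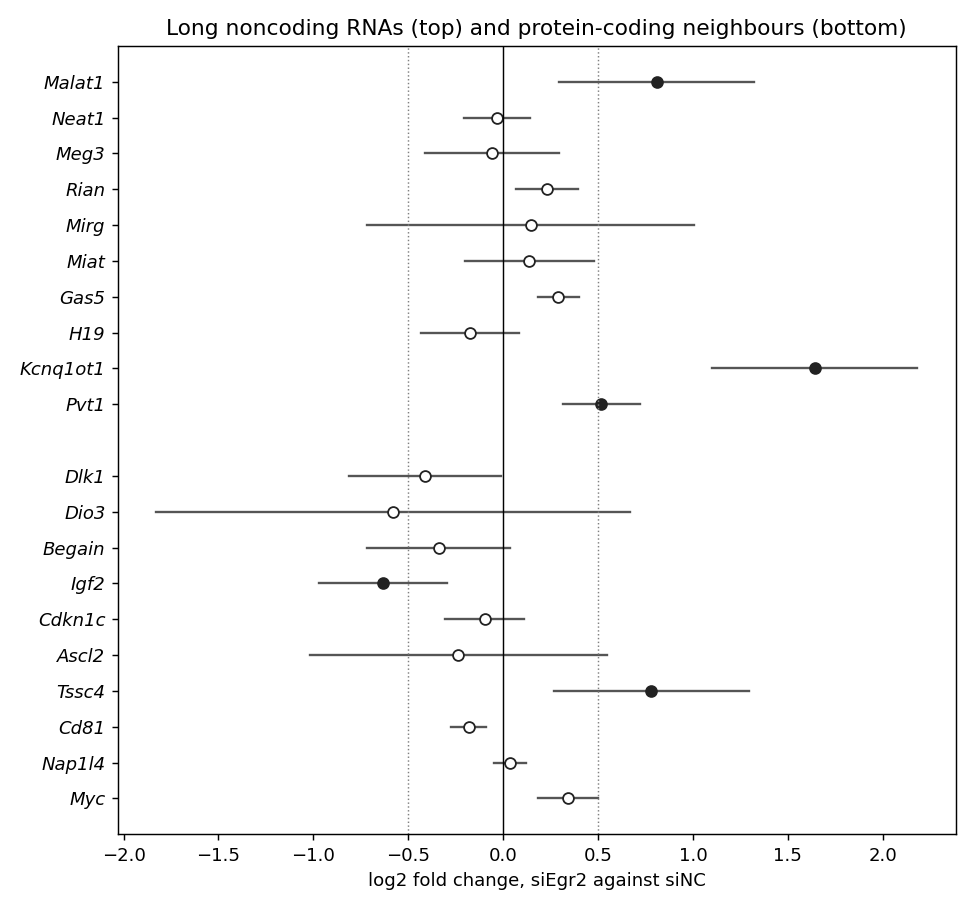
Log2 fold change of siEgr2 against siNC (horizontal axis) for the 10 long noncoding RNAs and for 10 protein-coding neighbours, with 95% confidence intervals from edgeR as lines. Filled points were called and open points were not, and dotted lines mark -0.5 and 0.5; Kcnq1ot1 lies at 1.64 and Igf2 at -0.63.

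The promoter of Kcnq1ot1 is shown because this RNA had the largest fold change of the 10. RefSeq promoters on GRCm38.p6, from 250 bases before to 50 bases after a gene's start, were found for 7 of the 10 RNAs, with 9 promoters in all, and Neat1, H19 and Pvt1 had none. The letters GCGTGGGCG, the motif of the Egr family, were searched on both strands. They occurred in 0 of the 9 promoters and in 201 of all 32851 promoters (0.612%), and 0 matches say only that these letters are not in these windows. The letters CCAAT, a motif chosen after seeing the data, occurred on either strand in 3 of the 9 promoters, those of Kcnq1ot1, Meg3 and Mirg, and in 37.4% of all promoters. The sequence is from chr7:143296498-143296797, minus strand, and covers the start of the gene, with its 3 copies of CCAAT in capitals.
Kcnq1ot1: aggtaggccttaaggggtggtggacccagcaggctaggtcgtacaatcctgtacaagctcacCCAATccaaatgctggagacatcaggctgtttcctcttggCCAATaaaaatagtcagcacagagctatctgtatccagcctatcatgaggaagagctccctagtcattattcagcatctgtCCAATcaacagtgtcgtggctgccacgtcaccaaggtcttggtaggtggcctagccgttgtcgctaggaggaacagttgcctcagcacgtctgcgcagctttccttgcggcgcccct

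Pvt1 and Gas5 were both higher in siEgr2 than in siNC by the adjusted p, and Pvt1 alone passed the fold threshold. Pvt1, a long multi-exon RNA gene on chromosome 15 from 62037986 to 62378096, lies beside the oncogene Myc. Its lowest, median and highest levels were 24.7, 26.5 and 30.9 CPM in siNC and 29.1, 38.9 and 45.6 CPM in siEgr2. In Pvt1 5 of 6 siEgr2 libraries lay above every siNC library, and replicate 2 lay within the siNC range. The log2 fold change was 0.52 (SE 0.0959; adjusted p 0.00105, edgeR quasi-likelihood test, BH), close to the fold threshold. Without siNC replicate 2 or 3, or siEgr2 replicate 1, 4 or 5, it was 0.46 to 0.50, and the call was lost while the adjusted p stayed at 0.00301 to 0.00347 in edgeR. Without siEgr2 replicates 4 and 6 it was 0.48 (adjusted p 0.00795, edgeR). With library size only it was 0.33 and with no filter 0.47, under the fold threshold in both. Myc had 49.7, 62.7 and 64.0 CPM in siNC and 66.7, 76.6 and 88.8 CPM in siEgr2, with no overlap, and its log2 fold change of 0.34 (adjusted p 0.0036, edgeR with BH adjustment) was under the threshold. The log2 ratio of Pvt1 to Myc differed by 0.17 (exact permutation test, p = 0.223, BH-adjusted p 0.357).

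Gas5, on chromosome 1 from 161034422 to 161038539, carries snoRNAs in its introns, and its spliced transcript is known to be removed by nonsense-mediated decay when it is translated. It had 72.3, 78.5 and 87.4 CPM in siNC and 93.0, 97.5 and 104 CPM in siEgr2 as its lowest, median and highest levels. The groups did not overlap, and the libraries within each lay close together, with a coefficient of variation of 6.81% in siNC and 4.37% in siEgr2. Its log2 fold change was 0.29 (SE 0.0510; adjusted p 0.000675, edgeR quasi-likelihood test, BH), under the fold threshold. Gas5 had 0.11 with library size only (adjusted p 0.158, edgeR) and 0.21 with the 18S share as a covariate (adjusted p 0.708, edgeR), and its adjusted p passed in the other 23 of 25 alternatives. Of 15 other snoRNA host transcripts tested, 0 were called in either direction, 4 had a higher level by the adjusted p alone and 0 a lower one, beside 8.57% and 11.3% of all tested genes, and the median log2 fold change was 0.18. The most abundant of them, Snhg6, had a log2 fold change of 0.35 (adjusted p 0.0187, edgeR with BH adjustment). The log2 ratio of Gas5 to Snhg1 differed by 0.03 (exact permutation test, p = 0.881). Of 10 genes for factors of nonsense-mediated decay, 0 were called in either direction and 0 passed the adjusted p in edgeR alone. The log2 fold changes of these genes ran from -0.06 to 0.12. Snhg7 was not analysed here.

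Miat, a nuclear RNA on chromosome 5 from 112213228 to 112229395 known from neurons and the retina, had 48.7, 65.7 and 103 CPM in siNC and 70.5, 73.0 and 82.0 CPM in siEgr2. All siEgr2 libraries lay within the siNC range. Its log2 fold change was 0.14 (95% confidence interval -0.20 to 0.48). Without siNC replicate 2, the library with the highest level, it was 0.30 (adjusted p 0.0271, edgeR), under the fold threshold. The other 5 siNC libraries had 48.7 to 69.1 CPM.

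Between genes, levels were compared per kilobase of annotated exon. Over all exons, the order in siNC was Malat1 with 186 CPM per kb, H19 with 174, Gas5 with 21.2, Neat1 with 14.5, Miat with 7.24, Pvt1 with 3.87, Meg3 with 2.06, Rian with 1.62, Kcnq1ot1 with 0.161 and Mirg with 0.0997 CPM per kb. The ranges of the libraries overlapped between the neighbours Malat1 and H19, Meg3 and Rian, and Kcnq1ot1 and Mirg, and not between the other neighbours. Per kb of the longest annotated transcript in place of all exons, 4 pairs of neighbours swapped places in siNC: H19 (187) came before Malat1 (186), Pvt1 (8.15) before Miat (7.34), Rian (3.66) before Meg3 (2.56) and Mirg (0.190) before Kcnq1ot1 (0.161). The order within these 4 pairs, with the first place of Malat1 and the separation of Miat from Pvt1, therefore depends on the length used. In siEgr2 Malat1 had 326 ± 125 and Kcnq1ot1 0.502 ± 0.219 CPM per kb (SD, n = 6).

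Inside Meg3, Rian, Mirg, Gas5 and H19 lie 37 miRNA and snoRNA genes of the table, of which 29 had a count and 2 were tested. Both lie in Gas5 and neither was called. Of these small RNA genes, 7 had the value 1 in every library, and the tested pair also held values of 1 that cannot be read as single reads, so nothing is drawn from them.

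As 1 set, annotated long noncoding RNA genes held more higher than lower calls. Of 1445 tested genes with such an annotation, 109 (7.54%) were called higher and 22 (1.52%) lower, beside 2.63% and 5.08% of all tested genes. Their median log2 fold change was 0.11. With library size only 88 of them were called higher and 64 lower, beside 237 higher and 1737 lower of all 16600 tested genes. Among the annotated classes, a split chosen after seeing the data and with no test between classes, 65 of 379 genes of the class TEC, transcripts that await an experimental check, were called higher (17.2%), against 15 of 302 lincRNA genes (4.97%) and 216 of 13241 protein-coding genes (1.63%). Of 53 sense intronic genes 9 were higher and 0 lower, of 425 antisense genes, the class of Kcnq1ot1, 11 were higher (2.59%) and 10 lower (2.35%), and of 56 bidirectional promoter genes 1 was higher and 1 lower. Processed pseudogenes, which are not in this annotation, also held more higher calls (51 of 986, 5.17%) than lower ones (3). In a list of 24 tested well-known noncoding RNAs, 4 were called higher (16.7%) and 1 lower (4.17%), beside 2.63% and 5.08% of all tested genes. Lncpint, a p53-regulated RNA, had a log2 fold change of 2.48 on low values that included 0 (adjusted p 0.00545, edgeR with BH adjustment). Dleu2, a host of miRNAs, had 2.73 to 3.96 CPM in siNC and 4.48 to 16.1 CPM in siEgr2, a log2 fold change of 1.62 (adjusted p 0.00118, edgeR with BH adjustment). Mir9-3hg and Chaserr had log2 fold changes of 0.96 and 0.59, and Mir22hg had -0.55. The call of Mir22hg was lost without siEgr2 replicates 4 and 6 (-0.48), without siNC replicate 2 (-0.50) and with the 18S share as a covariate (-0.18), and that of Chaserr with library size only (0.41). With the 18S share as a covariate 0 of these 5 genes were called. The most abundant of the list, Xist, had a log2 fold change of 0.19 and was not called.

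Of 30 tested imprinted genes of other clusters, 3 were called higher (10%) and 1 lower (3.33%), beside 2.63% and 5.08% of all tested genes. Their median log2 fold change was -0.02. With library size only 1 was called higher and 3 lower, beside 237 higher and 1737 lower of all 16600 tested genes. Mest, a paternally expressed gene of the hydrolase family, had 43.8 to 53.9 CPM in siNC and 30.4 to 35.6 CPM in siEgr2, and fell by 0.56 on the log2 scale (adjusted p 1.30e-05, edgeR quasi-likelihood test, BH). Nnat, which codes for a small membrane protein of developing neurons, rose by 0.62, Usp29 by 0.64 and Zdbf2 by 1.11 on the log2 scale. Nnat was called in 23 of 25 alternatives, Usp29 in 14 of 25 and Zdbf2 in 11 of 23, and Zdbf2 had 0.85 without siEgr2 replicates 4 and 6 (adjusted p 0.160, edgeR). Zdbf2 had 14 to 44 counts in siNC and 8 to 35 in siEgr2, low values whose meaning is not known. The most abundant gene of this list, Gnas, had a log2 fold change of -0.05.

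Of the genes for proteins that share nuclear bodies with these RNAs, measured as RNA, those of paraspeckles held 1 called gene and those of speckles held 0. Pspc1 codes for a core paraspeckle protein that binds Neat1. Its lowest, median and highest RNA levels were 33.6, 37.7 and 42.3 CPM in siNC and 58.7, 64.6 and 75.6 CPM in siEgr2. It did not overlap between the groups and rose by 0.80 on the log2 scale (SE 0.0750; adjusted p 1.64e-06, edgeR quasi-likelihood test, BH). Of the 16 paraspeckle protein genes, 9 had a higher RNA level by the adjusted p alone and 0 a lower one, beside 8.57% and 11.3% of all tested genes. The median log2 fold change of the 16 was 0.16, and the most abundant, Hnrnpk, had 0.12. Of 17 speckle protein genes, 8 were higher by the adjusted p alone and 0 lower, with a median of 0.12, and the most abundant, Son, had -0.05. Scaling by library size alone moved the median over all genes from 0.0046 to -0.18. It also moved Hnrnpk to -0.06 and Son to -0.24, so this step cannot be set against the medians of these lists. Pspc1 was called in 25 of 25 alternatives. It had 0.61 with library size only and 1.13 with the 18S share as a covariate (adjusted p 0.0260, edgeR).

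Markers of cell types were set beside these results, since fewer cells of a type and less RNA per cell cannot be told apart in these bulk libraries. Of 7 markers of myelinating OLs, 0 were called, and their summed level was 4016 to 4558 CPM in siNC and 3702 to 3894 CPM in siEgr2, with Mbp the most abundant of the 7. Of 6 markers of newly formed OLs, 0 were called. In edgeR by the adjusted p alone, 2 of the 7 and 1 of the 6 were lower and 0 were higher. Of 6 markers of OL precursors, 2 were called higher, beside 2.63% of all tested genes, the receptor gene Pdgfra with a log2 fold change of 0.56 and the proteoglycan gene Cspg4 with 0.56. By the adjusted p alone 5 of the 6 were higher and 0 lower in edgeR, beside 8.57% and 11.3% of all tested genes. With library size only Pdgfra had 0.37 and Cspg4 0.38, and 0 of the 6 were called. That scaling called 237 of all 16600 tested genes higher and 1737 lower. With the 18S share as a covariate the call of Cspg4 was lost (0.43, adjusted p 0.193, edgeR). That of Pdgfra was held (0.83, adjusted p 0.00327, edgeR). The summed level of the 6 was 2085 to 2462 CPM in siNC and 2781 to 3002 CPM in siEgr2, with Ptprz1 the most abundant. Astrocyte markers were present in cells labelled as OLs, with Gfap at 4777 CPM on average in siNC and 3242 CPM in siEgr2. By qPCR in primary OLs the paper reports the other direction, an increase of Gfap in siEgr2. Of 8 astrocyte markers, 5 were called lower and 0 higher, beside 5.08% and 2.63% of all tested genes, with a summed level of 8119 to 8814 CPM in siNC and 5206 to 5870 CPM in siEgr2.

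The other types had lower levels. Of 8 tested neuron markers 1 was called lower, Stmn2, and 0 higher. Over all tested genes 5.08% were called lower and 2.63% higher, which stands beside the other lists here too. With the 18S share as a covariate the call of Stmn2 was lost (-1.84, adjusted p 0.0879, edgeR). The summed level of the neuron markers was 409 to 663 CPM in siNC and 397 to 636 CPM in siEgr2, with Map2 the most abundant. Fibroblast and pericyte markers, with Col1a1 the most abundant, summed to 814 to 1359 CPM in siNC and 837 to 1030 CPM in siEgr2, and Pdgfrb and Rgs5 were called lower among 7, Pdgfrb not without siNC replicate 2 (-0.49) and neither with the 18S share as a covariate. Ependymal markers, with Foxj1 the most abundant, summed to 64.6 to 84.7 CPM in siNC and 48.2 to 61.7 CPM in siEgr2, and 0 of 4 tested were called. By the adjusted p alone 1 of the 4 was lower, Foxj1 at -0.48 (adjusted p 0.000116, edgeR), with 6 of 6 siEgr2 libraries below every siNC library. Foxj1 was called lower in 6 of 25 alternatives. With library size only 2 of the 4 markers were called lower, beside 1737 of all 16600 tested genes. Microglia markers summed to at most 6.47 CPM and endothelial markers to at most 7.04 CPM in any library. Aif1 and Cldn5 had no count. Of the 2 tested endothelial markers Flt1 was called lower, though not with the 18S share as a covariate (-1.99, adjusted p 0.550, edgeR). Flt1 had only 3 to 22 counts in the siEgr2 libraries, where what a low value stands for is not known. The part of cell type composition in the levels of the long noncoding RNAs was not tested.

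Within groups, the pairs examined were not shown to vary together. Of 10 correlations of log2 CPM, 5 pairs in each group of 6 libraries, 0 passed BH adjustment over the 10. In 4 of these pairs both genes are among the long noncoding RNAs (Meg3 with Rian, Meg3 with Mirg, Rian with Mirg, and Malat1 with Neat1), and the other is H19 with the protein-coding Igf2. The largest was Meg3 with Mirg in siEgr2 (Pearson r 0.81, exact permutation p = 0.0569, BH-adjusted p 0.354; Spearman rho 0.77, exact permutation p = 0.103), and r was 0.64 without the 2 libraries farthest from the median of Meg3. For Meg3 with Rian r was 0.45 in siNC and 0.51 in siEgr2 (exact permutation p = 0.392 and 0.328; Spearman rho 0.37 and 0.60, exact permutation p = 0.497 and 0.242).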

How the data were processed

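RNA-seq libraries of cultured OLs, 6 siEgr2 and 6 siNC, were grouped by their labels. The authors extracted RNA with TRIzol, had it sequenced (Illumina), and the deposited values are whole-number counts per gene symbol without scaling between libraries; the submitters' processing notes name mm10, and aligner, counting program and strandedness are not given in the sources used here. Low values were not plain tallies of reads, as described above. 1 entry without a gene name and without values was left out.

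The deposited counts passed edgeR's filterByExpr (version 4.0.16), then TMM scaling and its group comparison (in R 4.3.3; robust quasi-likelihood test, no covariate, BH over all tested genes). The procedure was tested on simulated data. Ratios used a pseudocount of 0.5. Annotation came from GENCODE M21 (GRCm38). The lists and the long noncoding RNAs were chosen with earlier results of these data known. A marker of myelinating OLs is not reported here and was left out of its list. The text names Egr2, the 10 RNAs and tested imprinted neighbours. From the lists it names mainly called genes and most abundant genes, but not all of them. The called astrocyte markers Aqp4, Slc1a3 and Slc1a2 are named only here. So are Bcas1, Smg1, Tmem119 and Cdh5, the most abundant of newly formed OL markers, decay factors, microglia markers and endothelial markers. The alternatives were RLE, upper-quartile and library-size scaling, DESeq2 1.42.0, limma-voom 3.58.1, other filters and fold thresholds, a replicate block, the 18S share as a covariate, thinning, structural RNAs left out and each library left out. Leaving out siEgr2 replicates 4 and 6 together, and halving the counts, were added after seeing the data.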

Additional observations from a re-analysis of the deposited data

Results flagged for a closer look

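In 150 groups of 6 values, the library farthest from its group was compared with the rest, and in 15 of them its gap to the nearest library, over the whole range, was above the 95% critical value of Dixon's test. Chance gives about 1 in 20, or 7.5 groups. Among the long noncoding RNAs, Malat1 in siNC replicate 2 had 928 CPM beside 1331 to 1445 CPM in the others, Neat1 in siNC replicate 4 had 389 CPM beside 274 to 293 CPM, and Miat in siEgr2 replicate 5 had 82.0 CPM beside 70.5 to 73.1 CPM. The log2 ratio of Rian to Meg3 was 0.78 in siEgr2 replicate 2 beside -0.35 to -0.01 in the others, and that of Pvt1 to Myc was -0.69 in siNC replicate 1 beside -1.37 to -1.16.

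In siNC replicate 2, Map2 had 523 CPM beside 251 to 277 CPM, Aldh1l1 had 178 CPM beside 216 to 235 CPM, Zdbf2 had 1.34 CPM beside 0.458 to 0.773 CPM and Rn7s1 had 2.72 CPM beside 16.5 to 22.2 CPM, so that this library stood out in 5 of the 15 groups, Malat1 included. The total count of siNC replicate 6 was 39383014 beside 28682946 to 32460116, and Nnat had 135 CPM in that library beside 88.4 to 99.4 CPM. Myc in siNC replicate 1 had 49.7 CPM beside 60.1 to 64.0 CPM, and Zbtb37, antisense to the start of Gas5, had 11.9 CPM in siNC replicate 4 beside 34.6 to 41.8 CPM. In siEgr2, Snhg6 had 36.5 CPM in replicate 2 beside 24.1 to 27.8 CPM, and Gm26953, antisense to Miat, had 1.75 CPM in replicate 6 beside 0.807 to 1.12 CPM. Malat1 and Kcnq1ot1 in siEgr2 replicates 4 and 6 did not meet this measure, since 2 libraries stood apart together.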

How the results depend on the processing

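The count of all called genes, 1281, was 1974 with library size only (237 higher, 1737 lower, so that 88.0% of calls were lower in place of 65.9%, with the median of all genes moved from 0.0046 to -0.18), 278 with the 18S share as a covariate (51 higher, 227 lower), 373 at a log2 fold change over 1 (177 and 196) and 3300 without a fold threshold (1423 and 1877). Of the long noncoding RNAs, 3 were higher as reported, 5 without a fold threshold, and 1 with no filter, with the 18S share as a covariate (Miat), at a log2 fold change over 1 and without siEgr2 replicates 4 and 6. With each library left out in turn the number ran from 1 to 3, and 0 were lower in every alternative. Thinned to the smallest total, or with structural RNAs left out, the same 3 RNAs were called. In these fits Malat1 had 0.81 and 0.82, Kcnq1ot1 1.67 and 1.65, and Pvt1 0.50 and 0.52. Neither fit tells the ribosomal RNA share apart from the treatment. With the counts halved and rounded, added because of the excess of even values, 1201 genes and the same 3 RNAs were called, with Malat1 at 0.81 and Kcnq1ot1 at 1.64.

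Malat1 was called in 13 of 25 alternatives (adjusted p 0.00529 to 0.831 over them, edgeR and the other tools). It had 0.76 with no filter (adjusted p 0.0595, edgeR), -0.56 with the 18S share as a covariate (adjusted p 0.831, edgeR), 0.63 to 0.88 with each library left out, and 0.39 without siEgr2 replicates 4 and 6. Kcnq1ot1 was called in 24 of 25 (adjusted p 3.12e-13 to 0.628), the exception being 1.26 with the 18S share as a covariate (adjusted p 0.628, edgeR), under which Miat had 1.71 (adjusted p 0.00043, edgeR). Pvt1 was called in 16 of 25 (adjusted p 6.94e-06 to 0.765), with 0.33 with library size only, 0.47 with no filter, 0.34 with the 18S share, 0.46 to 0.58 with each library left out and 0.48 without siEgr2 replicates 4 and 6. The 18S share as a covariate also turned Igf2 to 0.10, Rpph1 to -1.05 and Rn7s1 to -1.03. The cause was not tested. The 18S share separates the groups, so this covariate and the treatment cannot be told apart. The replicate numbers did not pair the samples (correlation of deviations -0.02 to 0.05 for equal numbers). With a replicate block, 1124 genes and 2 RNAs were called, and Malat1 had 0.74 (adjusted p 0.0689, edgeR). The ratio differences of Neat1 to Malat1, -0.77, and of Kcnq1ot1 to Cdkn1c, 1.66, had an adjusted p of 0.125 (exact sign-flip permutation). Both lay at the smallest unadjusted p of this permutation, 0.0312. The value 0.125 was thus set by the 64 sign flips and the adjustment over 8 ratios, and does not show a weaker difference.

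The ratio of Rian to Meg3 differed by 0.41 without siEgr2 replicate 3 (exact permutation, adjusted p 0.0289) and by 0.18 without siEgr2 replicate 2 (adjusted p 0.219), the ends of the range over all libraries left out in turn. The adjusted p of Rian passed in 10 of 25 alternatives, that of Gas5 in 23, that of Egr2 in 2 and that of Miat in 2, with the 18S share and without siNC replicate 2 (0.30, adjusted p 0.0271, edgeR). H19 passed in 1 of 25, with library size only (-0.36, adjusted p 0.0263, edgeR). The ratio of Neat1 to Malat1 differed by -0.47 without siEgr2 replicates 4 and 6. With library size only, imprinted neighbours had 0 higher and 3 lower, other imprinted genes 1 and 3, and 64 long noncoding RNA genes were lower in place of 22. Over all 16600 tested genes 237 were called higher and 1737 lower with this scaling. The depth of 8034251 counts in the smallest library and the unknown making of low values limit what Mirg and the small RNA genes can show.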
